A study of Mus musculus with 6 samples.

Results

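Paneth cell products were measured in 6 intestinal tumors of mice by 9 of the 22690 probe sets of a microarray. A probe set is a group of short probes read as 1 value for 1 transcript or a few similar ones. The 9 were the probe sets that the platform annotation assigns to Lyz1, Mmp7, Ang4, Itln1, Pla2g2a or Defa31, or to any gene whose symbol starts with Defa. Of the 6 listed genes 5 were on the array, 3 of the probe sets belonged to Lyz1, and no probe set naming Ang4, a ribonuclease of Paneth granules, was used here. The 3 Defa probe sets named 4 of the 28 Defa genes of RefSeq, all on chromosome 8, and 1 of them named both Defa30 and Defa24.

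The arrays came from 3 duodenal and 3 cecal tumors of 6 different mice, 1 array per tumor. All of the mice carried Apc1638N, a mutant allele of the Apc tumor suppressor, and were Rb1 deficient (Rb1 is the tumor suppressor of retinoblastoma), so the groups shared both alterations. The duodenal group could include tumor tissue from the pylorus, the outlet of the stomach. The means of losing Rb1 and the strain, age and sex of the mice were not given in the sources used here, and no normal tissue was analysed here. The p-values measure the spread between these tumors.

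Paneth cells are secretory cells at the base of the small intestinal crypts. They discharge granules of antimicrobial proteins into the crypt and supply signals to the stem cells beside them. In healthy mice they are plentiful in the small intestine and rare or absent in the large intestine, and Wnt signaling, which Apc restrains, drives their maturation. Among their products, lysozyme breaks the bacterial cell wall, alpha-defensins are small peptides that damage bacterial membranes, and matrilysin (Mmp7) is the protease that cuts the alpha-defensins of the mouse into their active form.

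Values are probe set intensities on a linear scale, as the authors deposited them, with nearly equal trimmed means on the 6 arrays. A level says nothing about another probe set's level. A probe set was tested when it lay above its array's 40th percentile, an intensity of 92.36 to 100.6, on at least 3 of the 6 arrays. Array medians ran from 164.6 to 181.75. Of the 9 member probe sets 8 were tested, each through arrays of both sites, and the one left out was that of Defa3. Folds are cecal minus duodenal on the log2(intensity + 16) scale, from limma across 13866 probe sets with Benjamini-Hochberg adjustment. In tumor RNA of this kind, fewer cells of a type and less RNA per cell cannot be told apart.

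Lysozyme was the one product that passed the test between the sites. Of the 8 tested member probe sets 2 passed an adjusted p of 0.05, both belonged to Lyz1 and both were higher in the cecal tumors. Over all tested probe sets 9.3% passed, 5.24% as higher and 4.07% as lower in the cecal tumors. The median log2 fold of the 8 was -0.10, against -0.04 over all tested probe sets. The levels of Mmp7, Itln1, Pla2g2a and the alpha-defensins overlapped between the sites, as the plot of values by tumor shows.

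**Figure D1:**
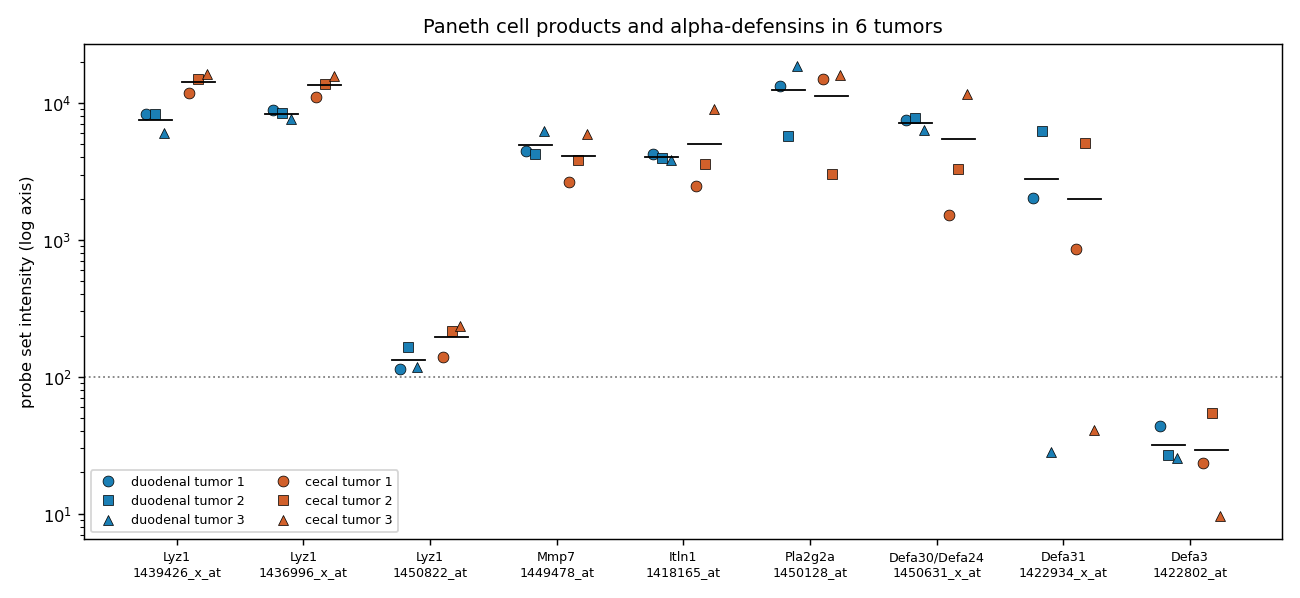
Intensity (log axis) of the 9 member probe sets in each tumor, with blue for duodenal and orange for cecal tumors, a marker shape for each tumor number, black bars for the site means and a dotted line at an intensity of 100, near the 40th percentile. Both bright Lyz1 probe sets separate the sites, the tumors numbered 3 fall to 28.1 and 40.6 for Defa31, and the tumors numbered 2 are lowest for Pla2g2a.

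Lyz1 encodes lysozyme P, the lysozyme of Paneth granules. The probe set of Lyz1 with the larger fold read 8359.4, 8258.6 and 5997 in duodenal tumors 1, 2 and 3 and 11728.3, 14887.3 and 16361.8 in cecal tumors 1, 2 and 3. All 3 cecal values lay above all 3 duodenal ones. The mean rose from 7538.3 ± 1335.8 to 14325.8 ± 2367.2 (SD, n = 3 each), a log2 fold of 0.93 ± 0.17 (SE; 95% interval 0.54 to 1.31; limma adjusted p = 0.0121).

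The other bright probe set of Lyz1 read 8890.4, 8454.5 and 7579.8 in the duodenal tumors, against 10999.7, 13769.7 and 15666.3 in the cecal ones. The sites were again apart, with means of 8308.2 ± 667.4 and 13478.6 ± 2346.9 and a log2 fold of 0.69 ± 0.14 (SE; 95% interval 0.37 to 1; limma adjusted p = 0.019). The 16361.8 of cecal tumor 3 was the highest value of any probe set on that array. The third probe set was dim, with 113.4, 164 and 117.5 in the duodenal tumors, against 139.1, 216 and 234.6 in the cecal ones. Its groups overlapped, and its log2 fold of 0.51 ± 0.23 (SE) had an adjusted p of 0.237.

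Without cecal tumor 2 neither bright probe set passed (adjusted p = 0.053 and 0.0788), with log2 folds of 0.89 and 0.66. In the 4 male tumors alone the log2 folds were 0.97 and 0.68 (adjusted p = 0.0637 and 0.129). Compared by tumor number, the cecal tumor was higher in 3 of 3 for each of the 3 Lyz1 probe sets. The log2 differences were 0.49 to 1.45, 0.31 to 1.05 and 0.26 to 0.91. For both bright probe sets any matching of the tumors would give 3 of 3, since their groups did not overlap. Of the 8 tested member probe sets, 2 had groups that did not overlap, against 29.5% of all tested probe sets.

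Lyz2, the lysozyme of macrophages, is a close relative of Lyz1 on the same chromosome, and both bright Lyz1 probe sets, like those of Defa31 and of Defa30 and Defa24, are of a kind (_x_at) that can read similar transcripts together. Lyz2 had 3609, 4303.8 and 4187.5 in the duodenal tumors, against 4541.2, 4642.6 and 6103.6 in the cecal ones. These groups did not overlap either, but the log2 fold of 0.33 ± 0.14 (SE) did not pass (limma adjusted p = 0.213). Of 11 macrophage and monocyte markers 10 were tested and none passed by limma, with 3 (Cd14, Mrc1 and Lyz2) at an unadjusted p under 0.05. The summed intensity of the 11, Lyz2 included, was 8654.9 to 10244.5 in duodenal and 10330.5 to 12601.4 in cecal tumors. Without Lyz2 the sums overlapped, at 4965.3 to 5940.7 and 5789.3 to 6497.8. The part of cross-hybridisation and of macrophages in the Lyz1 difference was not tested.

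Markers of other secretory lineages differed in both directions. Deep crypt secretory markers mark the cells that take the place of Paneth cells in the colon crypt. Of these, 2 of 5, Reg4 and Spink4, were higher in cecal tumors. The summed intensity of the 5 was 10529.1 to 16640.9 in duodenal and 30096.9 to 33535 in cecal tumors. Such sums, here and elsewhere, weigh bright probe sets most. This one rose through Reg4 and Spink4, while the mean of Agr2 was 7811 in duodenal and 6486.9 in cecal tumors and Kit and Dll4 were far dimmer. Reg4, the marker of that cell type, rose from 2189.2 ± 929.7 to 12845.8 ± 1154 (log2 fold 2.63 ± 0.28 SE; limma adjusted p = 0.0011). Agr2, Kit and Dll4 of that list had log2 folds of -0.21, 0.21 and 0.27 that did not pass (limma adjusted p = 0.708, 0.536 and 0.401). Of the goblet cell markers 3 of 8 were higher and 1 was lower, with sums of 28216.1 to 46198.4 in duodenal and 44735.7 to 60882 in cecal tumors. The largest fold among those past the threshold was that of Clca1, a secreted protein of goblet cell mucus, which fell from 9733.7 ± 2317.6 to 1243.6 ± 825.4 (log2 fold -3.12 ± 0.39 SE; limma adjusted p = 0.00228). Spink4, on both lists, rose by 1.91 ± 0.20 on the log2 scale (adjusted p = 0.00108). The other 2 that were higher were Tff3, a trefoil peptide, at 0.95 ± 0.21 (adjusted p = 0.0284), and Muc13, a membrane mucin, at 0.79 ± 0.20 (adjusted p = 0.0487). Tff3 no longer passed when cecal tumor 1 or 3 or duodenal tumor 2 or 3 was left out (0.0658 to 0.115). Muc13 no longer passed without duodenal tumor 1 or any one of the 3 cecal tumors (0.0694 to 0.167), without a filter on dim probe sets (0.0816) or without the intensity trend (0.0739). Each of the 5 deep crypt secretory and 8 goblet markers on the array was tested, and the part of these cells in the Lyz1 difference was not tested. Of 7 epithelial markers 2, Cdx2 and Vil1, were higher in cecal tumors, with sums over the list of 42619.9 to 47997.8 and 51308.1 to 54888.2. Krt20 did not pass, at 0.78 ± 0.23 (SE; limma adjusted p = 0.0767, or 0.0067 with the tumor number as a block in the fit). Vil1 (log2 fold 0.58 ± 0.13 SE; limma adjusted p = 0.0264) passed in the leave-one-out fits only without duodenal tumor 3; in the other 5 its adjusted p was 0.0549 to 0.1, and without the intensity trend it was 0.0516.

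**Figure D2:**
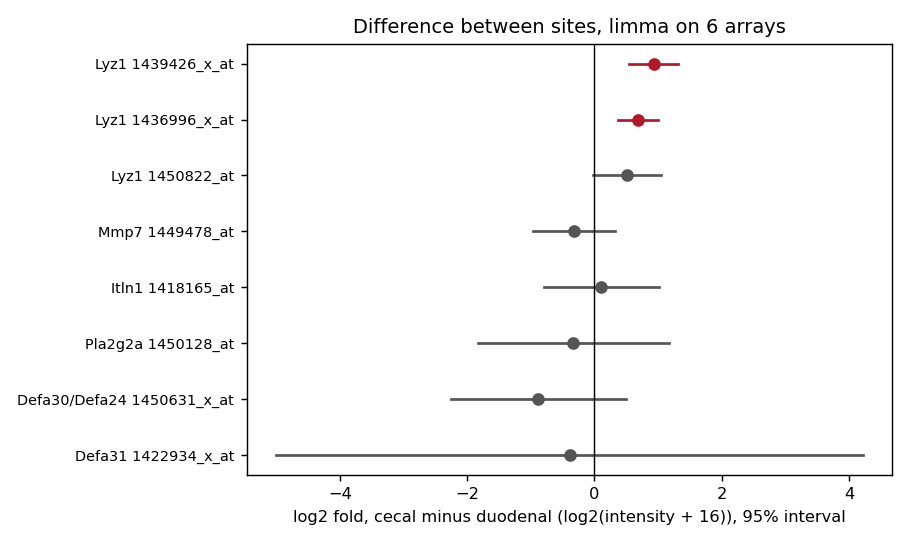
Log2 fold (cecal minus duodenal, x axis) with its 95% interval for the 8 tested member probe sets, red where the limma adjusted p was under 0.05. The intervals of both bright Lyz1 probe sets lie above 0, and that of Defa31 runs from -5 to 4.22.

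Mmp7 was bright in every tumor and did not separate the sites. It read 4451.2, 4218 and 6217 in the duodenal tumors, against 2641.9, 3802.6 and 5928.1 in the cecal ones. The means were 4962.1 ± 1093 and 4124.2 ± 1666.5, and the log2 fold of -0.32 ± 0.28 (SE) did not pass (95% interval -0.96 to 0.32; limma adjusted p = 0.552). At each number the cecal tumor was lower, by log2 differences of -0.75 to -0.07, and tumor 3 was the highest of its site at both sites.

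Itln1, intelectin 1, is a lectin of Paneth and goblet cells that binds sugars of microbial surfaces. Its values were close together in duodenal tumors, at 4229.6, 3957.5 and 3803.6, and spread in cecal tumors, at 2488.6, 3605.4 and 8992.8. The highest cecal value was 3.61 times the lowest, against 1.11 in duodenal tumors. The fold did not pass (0.11 ± 0.39 SE; 95% interval -0.79 to 1.02; adjusted p = 0.897), and it was -0.41 without cecal tumor 3.

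Pla2g2a encodes a secreted phospholipase A2 that attacks bacterial membranes. In C57BL/6 mice the gene is disrupted, and RefSeq lists it in the C57BL/6J genome as a transcribed pseudogene. It read 13248.2, 5761.7 and 18469 in the duodenal tumors, against 14836.5, 3003.3 and 15910.1 in the cecal ones. The tumors numbered 2 were the lowest at both sites, at 0.461 and 0.267 of their site mean. The site means of 12493 ± 6387.2 and 11250 ± 7162 gave a log2 fold of -0.33 ± 0.65 (SE; 95% interval -1.83 to 1.17; adjusted p = 0.816).

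The tumors numbered 2 were also those of female mice. Xist, the RNA of the inactive X chromosome, read 3608.5 and 3010.9 in them and 1.2 to 17.5 in the other 4 tumors. In the 4 male tumors alone the log2 fold of Pla2g2a was -0.03 ± 0.19 (SE; limma adjusted p = 0.965). The part of sex in the level of Pla2g2a was not tested.

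The alpha-defensin Defa31 varied far more between tumors of a site than between sites. Its probe set read 2018.7, 6268.5 and 28.1 in duodenal tumors 1, 2 and 3 and 854.9, 5083.8 and 40.6 in cecal tumors 1, 2 and 3. The order of the tumors was the same at both sites, with number 2 highest and number 3 below the 40th percentile. The highest value was 223 times the lowest among duodenal and 125 times among cecal tumors. The fold between sites did not pass and was poorly bounded (log2 fold -0.39 ± 2.01 SE; 95% interval -5 to 4.22; adjusted p = 0.935). With the tumor number as a block in the fit the same fold had an SE of 0.27 (adjusted p = 0.434).

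The probe set that names Defa30 and Defa24 did not follow that order. It read 7477.6, 7712 and 6336.4 in the duodenal tumors, against 1517.1, 3309 and 11569 in the cecal ones, so cecal tumor 3, almost without Defa31 signal, had the highest value. The fold of -0.88 ± 0.60 (SE; 95% interval -2.26 to 0.50) did not pass with all arrays (adjusted p = 0.435). Without cecal tumor 3 it passed, at -1.67 ± 0.30 (SE; limma adjusted p = 0.0169). The probe set of Defa3 stayed between 9.6 and 54.1, below the 40th percentile on every array.

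A probe set with no gene in the annotation table, picked out here after its values were seen, ran beside Defa31. It read 2097.2, 5809.1 and 26.6 in the duodenal tumors, against 1778.3, 6773 and 52.5 in the cecal ones. It had the largest spread within sites of all 13866 tested probe sets, and Defa31 had the one ranked 2. Both tumors numbered 3 were from male mice, and among the 4 male tumors Defa31 ranged from 28.1 to 2018.7. In the tumors numbered 2, those of female mice, Defa31 read 6268.5 and 5083.8, the highest value of each site. The part of sex in the level of Defa31 was not tested.

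**Figure D3:**
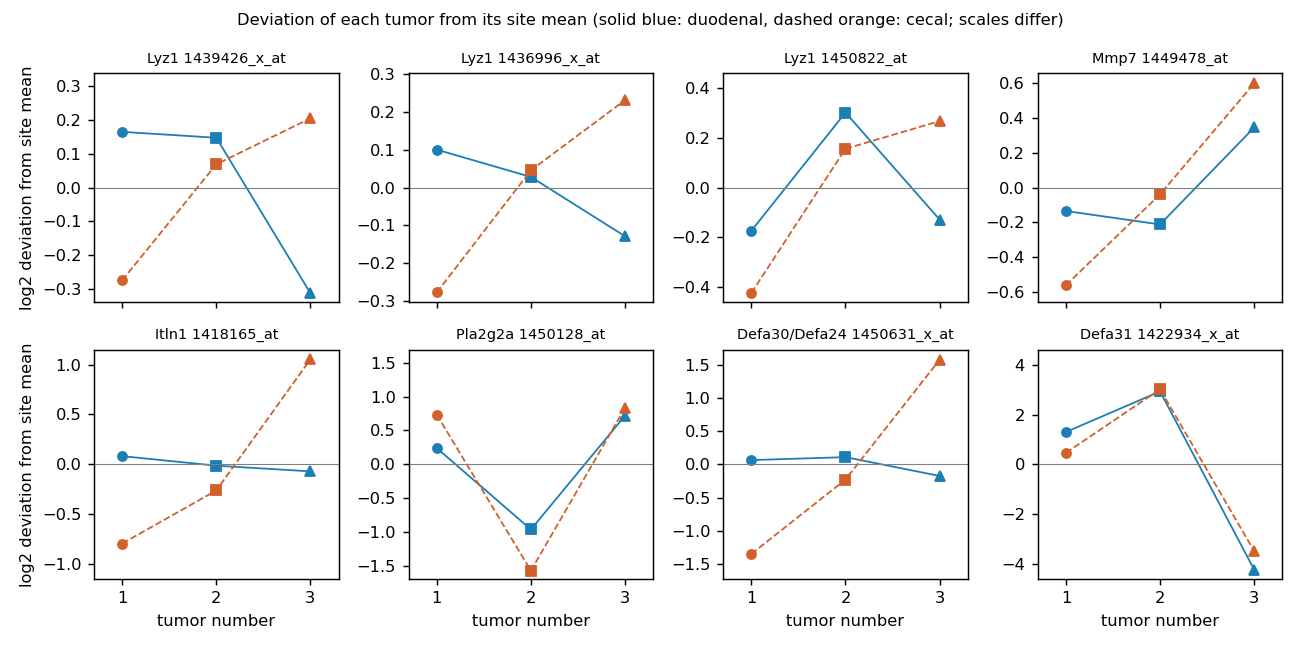
Deviation of each tumor from the mean of its site (y axis, log2(intensity + 16), scales differ between panels) against tumor number, solid blue for duodenal and dashed orange for cecal tumors, for the 8 tested member probe sets. The lines run together for Defa31 and Pla2g2a and cross for the bright Lyz1 probe sets and for Defa30/Defa24.

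The members as a group were more variable within a site than most probe sets. The pooled SD within sites on the log2 scale was 3.52 for Defa31, 1.14 for Pla2g2a, 1.05 for Defa30/Defa24, 0.67 for Itln1 and 0.46 for Mmp7. The median over all tested probe sets was 0.20 and their 90th percentile 0.42, and 5 of the 8 members lay above the latter. The Lyz1 probe sets, at 0.20, 0.26 and 0.32, lay nearer the median, and they include the 2 that passed.

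**Figure D4:**
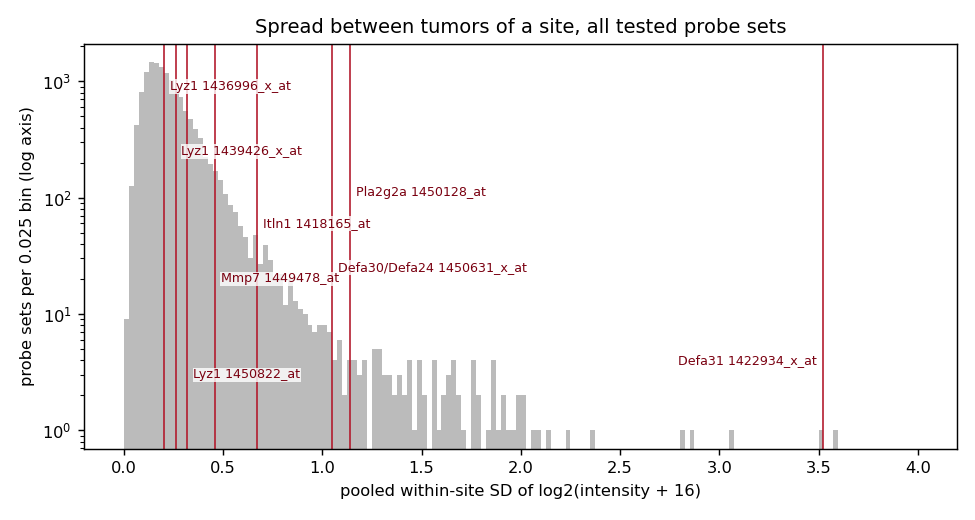
Number of probe sets (y axis, log axis) by pooled within-site SD of log2(intensity + 16) (x axis) for the 13866 tested probe sets, with red lines at the 8 tested members. Defa31 at 3.52 lies at the far end, Pla2g2a and Defa30/Defa24 at 1.14 and 1.05 in the upper tail, and 1 of the bright Lyz1 probe sets at the median of 0.20.

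Promoter letters are shown for the genes of this group that hold ATCAAAG, the core of the site bound by the Tcf/Lef factors of Wnt signaling. Each line runs 5′ to 3′ on the gene's strand from 250 bases before to 50 bases after the start, from RefSeq (GRCm38.p6), with ATCAAAG in capitals, searched on both strands. Defa31 lies at chr8:21191323-21191622, Defa30 at chr8:21134400-21134699 and Mmp7 at chr9:7691840-7692139, all on the plus strand.
Defa31: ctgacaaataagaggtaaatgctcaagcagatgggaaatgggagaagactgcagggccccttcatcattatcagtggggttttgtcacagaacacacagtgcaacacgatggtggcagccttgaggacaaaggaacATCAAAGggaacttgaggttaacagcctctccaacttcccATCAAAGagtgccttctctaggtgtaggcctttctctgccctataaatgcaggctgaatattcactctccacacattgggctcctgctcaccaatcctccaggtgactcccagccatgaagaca
Defa30: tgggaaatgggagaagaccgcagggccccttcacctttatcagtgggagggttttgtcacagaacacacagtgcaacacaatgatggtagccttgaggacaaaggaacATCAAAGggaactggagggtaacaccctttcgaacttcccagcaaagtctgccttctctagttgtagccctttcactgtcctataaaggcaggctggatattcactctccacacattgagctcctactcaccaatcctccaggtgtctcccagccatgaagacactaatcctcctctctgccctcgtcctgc
Mmp7: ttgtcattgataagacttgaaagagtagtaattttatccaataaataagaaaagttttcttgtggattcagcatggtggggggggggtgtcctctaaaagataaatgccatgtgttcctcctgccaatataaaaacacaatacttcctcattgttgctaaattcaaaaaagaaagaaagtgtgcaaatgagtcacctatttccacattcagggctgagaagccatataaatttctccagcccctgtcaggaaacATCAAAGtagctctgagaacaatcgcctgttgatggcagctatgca

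The motif began 114 and 74 bases before the start in Defa31, 142 bases before it in Defa30 and 4 bases after it in Mmp7. Counted from a second listed start of Mmp7, the same motif began 247 bases before that start. It was present in 13 of the 16 Defa promoters of the table and in 3.73% of its 32851 promoters of 300 bases. The Defa promoters are near copies of one another, and that of Defa31 has the same letters as that of Defa23, so the 16 are not independent. The windows of Lyz1, Itln1 and Ang4 do not hold these letters. No promoter window was available for Pla2g2a, Defa24 or Defa3, so these were not searched. A match describes the letters and not a bound site, and no probe set here reads Defa30 alone.

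In 4 lists of genes tied to Paneth cells, other than the members, 42 genes were tested. Of these, 2 were higher and 5 lower in the cecal tumors (limma adjusted p under 0.05). The lists also hold genes not particular to Paneth cells, among them Neurog3, Atoh1, Ern2 and Guca2b. Of all 8129 tested genes 10.4% passed, 5.7% as higher and 4.75% as lower. Of the 42 folds 15 were positive and 27 negative, against 3537 positive and 4592 negative among all 8129 tested genes. The median log2 fold of the 42 was -0.19, against -0.05 over all tested genes. With the tumor number as a block 12 of the 42 passed, and without single arrays between 3 (no cecal tumor 2) and 12 (no cecal tumor 3) did, and 4 did without duodenal tumor 1, duodenal tumor 3 or cecal tumor 1.

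Among 10 tested products, 1 was higher and 1 was lower. Guca2b, the gut peptide uroguanylin, rose from 196.3 ± 64.2 to 662.8 ± 274.3 (log2 fold 1.62 ± 0.35 SE; limma adjusted p = 0.0261), which no longer passed when duodenal tumor 1 or 3 or cecal tumor 2 or 3 was left out (adjusted p = 0.0668 to 0.0951). Habp2, a hyaluronan-binding protease, fell from 865.2 ± 373.2 to 326.3 ± 117.4 (log2 fold -1.35 ± 0.34 SE; adjusted p = 0.0446). It no longer passed when duodenal tumor 2 or 3 or cecal tumor 1 or 2 was left out (0.065 to 0.131), nor without a filter on dim probe sets (0.0703) or without the intensity trend (0.0555).

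Mptx1, a pentraxin of Paneth cells in mice, read 238.3, 150.3 and 1043.7 in the duodenal tumors, against 24.7, 9.9 and 221.7 in the cecal ones. At each number the cecal tumor was lower, while the groups overlapped. The log2 fold of -2.49 ± 0.90 (SE) did not pass (limma adjusted p = 0.136), but it did with the tumor number as a block (0.000416). As for every block value here, the pairing by number comes from these data and not from the labels. Reg3b, a lectin that kills bacteria and the brightest gene of this list, had 8370.4, 1020.6 and 6931.9 in the duodenal tumors, against 10201, 3089.9 and 8542.6 in the cecal ones, lowest in the tumors numbered 2 (log2 fold 0.72 ± 0.77 SE; adjusted p = 0.636).

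None of the 5 tested niche signals, by which Paneth cells support stem cells, passed in the limma fit, with 1, Cd24a, at an unadjusted p under 0.05. Cd24a, a surface protein used to isolate Paneth cells, was the brightest, at 10563.9 ± 1460.7 in duodenal and 7391 ± 983.2 in cecal tumors. Its log2 fold was -0.51 ± 0.13 (SE), with an adjusted p of 0.0521, or 0.0063 with the block. The other 2 Cd24a probe sets passed, at -0.55 and -0.67 (adjusted p = 0.0168 and 0.0499). The Paneth signals Wnt3, Wnt9b and Egf were too dim to be tested.

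Of 12 tested lineage and position factors 1 was higher and 1 lower. Atoh1, which commits cells to the secretory fate, read 248.4, 190.3 and 109.1 in the duodenal tumors, against 848.7, 613 and 823.5 in the cecal ones (log2 fold 2.02 ± 0.27 SE; limma adjusted p = 0.00337). Neurog3, the factor of the endocrine branch, lay below the 40th percentile in each cecal tumor, so that the duodenal level was at least 2.58-fold higher (limma adjusted p = 0.00329). Sox9, which mouse Paneth cells need in order to form, had 732, 837.2 and 1091.3 in the duodenal tumors, against 309.1, 512.9 and 594.5 in the cecal ones. The groups did not overlap, and the fold of -0.92 ± 0.25 (SE) had an adjusted p of 0.0608, or 0.0101 with the block, while another probe set of Sox9 passed at -0.74 (0.0275). Ephb3, the receptor that holds Paneth cells at the crypt base in mice, was at 742.6 ± 102.1 and 424.7 ± 199.9, with a log2 fold of -0.89 ± 0.32 (SE) and an adjusted p of 0.142, or 0.0457 with the block. Ctnnb1, which encodes beta-catenin, was the brightest of the list, with a log2 fold of 0.11 ± 0.12 (SE; adjusted p = 0.621). For Efnb1, a ligand of the Eph receptors, 2 dimmer probe sets passed, at 0.77 and 0.80 (adjusted p = 0.00966 and 0.0199), while the brightest one did not.

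Of 15 tested genes of granules and the stress response of secretory cells, 3 fell in the cecal tumors. Rab3d, a GTPase of secretory granules, fell from 1522.9 ± 304 to 825.3 ± 9.7 (log2 fold -0.85 ± 0.16 SE; limma adjusted p = 0.0141). Kcnn4, a potassium channel of secreting cells, fell from 1957.6 ± 171.2 to 1126.5 ± 137.5 (-0.79 ± 0.13 SE; adjusted p = 0.00919). Ern2, an endoplasmic reticulum stress sensor of gut epithelium, fell from 587.1 ± 193.9 to 229.8 ± 29.4 (-1.24 ± 0.25 SE; adjusted p = 0.02). Ern2 no longer passed when duodenal tumor 1 or 3 or cecal tumor 1 or 2 was left out (adjusted p = 0.053 to 0.0848). Rab3d no longer passed when duodenal tumor 1 or cecal tumor 1 or 2 was left out (adjusted p = 0.0534 to 0.0544). Hspa5, the chaperone BiP, was the brightest of the list, with a log2 fold of -0.22 that did not pass. Xbp1, a factor of the unfolded protein response that Paneth cells depend on in mice, had a log2 fold of -0.34 ± 0.17 (SE), with an adjusted p of 0.28, or 0.0474 with the block.

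Of 10 tested relatives of the listed products 1 fell in the cecal tumors. Pla2g12a, another secreted phospholipase, fell from 699.2 ± 141.9 to 262.3 ± 82.8 (log2 fold -1.39 ± 0.24 SE; limma adjusted p = 0.0106). Pla2g5 and Ang, an angiogenin of the family of Ang4, had folds of -0.97 ± 0.26 and -1.17 ± 0.35 (SE) that did not pass (adjusted p = 0.0596 and 0.082), and both passed with the block (0.0283 and 0.00486). The beta-defensins Defb1, Defb2, Defb3 and Defb4 were below the 40th percentile on all arrays.

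The gastric and Brunner gland markers that were tested were higher in duodenal tumors. Among the tested neutrophil markers only Ltf passed, also as higher in duodenal tumors. Of the gastric surface and pyloric gland markers 7 of 7 were lower in cecal tumors, with sums of 56355.1 to 81960.1 in duodenal and 1171 to 2016.4 in cecal tumors. Both tested Brunner gland markers, Tff2 and Pdx1, were lower as well, but Tff2 is also among the 7 gastric markers. Egf, the other Brunner gland marker on the array, was too dim to be tested. Of 9 pancreatic acinar markers on the array 6 were below the 40th percentile on every array, Cpa1 and Ctrb1 among them, while Clps and Cela1, the 2 tested, were above it in all tumors. Cela1, an elastase, fell from 4015.4 ± 1484.9 to 1309 ± 282.8 (log2 fold -1.56 ± 0.27 SE; limma adjusted p = 0.0102), and Clps, colipase, had a fold of -0.96 ± 0.33 (SE; adjusted p = 0.124). Of 8 neutrophil markers on the array 5 were below it on every array. Of the 3 tested, Ltf, the lactoferrin that epithelia also make, was lower in the cecal tumors (log2 fold -3.82 ± 0.54 SE; adjusted p = 0.00449). The other 2, S100a8 and S100a9, had folds of 1.60 and 1.78 that did not pass (adjusted p = 0.241 and 0.224). Both were highest in cecal tumor 3, at 825.3 and 656.7, the tumor with the highest values of Itln1 and Defa30/Defa24; their part in those values was not tested. The part of pyloric tissue in the values of the members was not tested.

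The genes whose profile over the 6 tumors lay nearest to each member were found by the root mean square distance between mean-centred log2 values, over the 8129 tested genes. For the bright Lyz1 probe sets they were Boc, Capn1 and Slc5a1, at 0.08 to 0.09, and Slc5a1, Relb and Ugcg, at 0.10 to 0.12. For the dim one they were Hira, Tmem119 and Thop1, at 0.10 to 0.13. For Mmp7 they were Bcas3, Adpgk and Smo, at 0.11 to 0.15, and for Itln1 Kdelr1, Acsf3 and 1600014C10Rik, at 0.21 to 0.24. For Pla2g2a they were Nmnat1, Ccdc80 and Adh1, at 0.46 to 0.53. For Defa30/Defa24 they were Cxcl5, Ajuba and Clps, at 0.45 to 0.46, where Clps read 792, 616.8 and 783.5 in the duodenal tumors, against 211.8, 359.1 and 630.3 in the cecal ones. No named gene came close to Defa31, since Gdpd3, Sox17 and Ccne2 lay at 2.03 to 2.27, whereas the unnamed probe set lay at 0.39.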

How the data were processed

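The deposited values are linear intensities. The submitters' processing notes name MAS5 as the tool by which the authors made them, with no version or scaling target given in the sources used here. The mean between the 2nd and 98th percentiles was 499.1 to 499.9 on every array, so no normalization was added. Gene names came from the platform's annotation table (20380 of 22690 with 1 gene, 691 with several, 1555 with none, 64 controls left out); 20351 gene ids matched RefSeq GRCm38.p6. Values were compared as log2(intensity + 16), which understates changes of dim probe sets, with limma 3.58.1 in R 4.3.3 (lmFit, eBayes with an intensity trend), two-sided, at an adjusted p of 0.05. A gene was represented by its brightest tested probe set. A probe set below the 40th percentile throughout one site has its fold given as a bound against that level. Members, lists and tests were chosen with earlier results of these data known. Named list genes are those past the threshold (at most 6 by p) and the brightest. Mptx1, Sox9, Ephb3, Xbp1, Efnb1, Pla2g5, Ang, Reg3g, Zg16, Cd14, Mrc1, Krt20, Agr2, Kit, Dll4, S100a8 and S100a9 were named after their values were seen. The precision is limited by the number of arrays.

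The deviations of same-numbered tumors from their site means had correlations of 0.274, 0.299 and 0.203, each above 0.1, which meets the bar set for a pairing by number; this comes from the data, as the labels name no shared litter or batch. Folds, p-values and counts come from the fit without a block, and values with the tumor number as a block stand beside results whose call it changed and beside Defa31. Alternatives covered the offset, the filter, the normalization, the variance model, the block and leaving out each array; the 4 arrays with Xist under 100 were added after the data were seen. On simulated data with 200 of 13866 probe sets changed, the fit called 61% of those changed 2-fold and 89% of those changed 4-fold. Figures were drawn with Python 3.11.15 and matplotlib 3.10.9.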

Additional observations from a re-analysis of the deposited data

How the results depend on the processing

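The count of member probe sets past the threshold stayed at 2 under the other offsets, filters, normalizations, variance models and the replicate block, and ran from 0 to 3 when single arrays were left out. By limma it was 0 with the male arrays alone and without cecal tumor 2, where 2 had an unadjusted p under 0.05 in each case. The count over all probe sets was 1939 with array weights, 695 with the male arrays alone and 658 to 1194 without single arrays. Over the 4 lists of genes tied to Paneth cells it was 12 with the replicate block and 3 to 12 without single arrays. Fewer arrays leave fewer degrees of freedom. Member folds that did not pass changed sign in places: Defa31 to 0.14 with array weights and to between -2.5 and 1.35 without single arrays, Pla2g2a to between -0.81 and 0.45 and Itln1 to between -0.41 and 0.51 without single arrays. Reg3b turned to -0.17 and Reg3g to -0.06 with array weights, and Reg3b ran from -0.24 to 1.27 without single arrays. The cause was not tested. The block changed no member's call. Mmp7 kept a negative fold, from -0.62 to -0.04, and each Lyz1 probe set a positive one, under every alternative run, except that the dim Lyz1 probe set was not tested with the filter at the 60th percentile.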

Other observations

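Other antimicrobial proteins of the gut differed in both directions. Of 14 tested genes 3 were higher and 2 lower in cecal tumors by limma, against 5.7% and 4.75% of all tested genes. Retnlb, a goblet cell protein that acts on bacteria, read 587.7, 24 and 371.9 in the duodenal tumors, against 10776.2, 2837.9 and 13618.4 in the cecal ones. Its log2 fold was 5.15 ± 0.98 (SE), with an adjusted p of 0.0151, or 0.0731 without cecal tumor 1. Ccl28, a chemokine with antimicrobial activity, rose from 126 ± 17.6 to 424 ± 135.3 (adjusted p = 0.00576), and Lpo, lactoperoxidase, from 182.1 ± 30.9 to 392 ± 130.7 (adjusted p = 0.034). Lpo no longer passed whichever array was left out (0.0579 to 0.083), or without a filter on dim probe sets (0.0571). Ltf, the iron-binding lactoferrin, which is also on the neutrophil list, fell from 2045 ± 1269.7 to 124.2 ± 67.1 (log2 fold -3.82 ± 0.54 SE; adjusted p = 0.00449), and Lgals9, a lectin, from 5899 ± 139.1 to 2992.4 ± 451.6 (adjusted p = 0.00254). Lgals4, the brightest of the list, had a log2 fold of 0.24 ± 0.12 (SE), with an adjusted p of 0.26. Zg16, a goblet cell lectin that binds bacteria, had a fold of 2.79 ± 0.95 (SE) that did not pass (adjusted p = 0.117, or 0.0263 with the tumor number as a block).

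A second unnamed probe set was picked out because its profile lay near that of Defa31. The root mean square distance was 1.22, against 0.39 for the first one. This second probe set was lowest in the tumors numbered 3, a likeness to Defa31 that follows from the choice. It read 503.1, 930.5 and 18.9 in the duodenal tumors, against 123.8, 879.2 and 58.7 in the cecal ones. Reg3g, a lectin that kills Gram-positive bacteria, read 5240.7, 533.6 and 2170.8 in the duodenal tumors, against 5739.3, 1714.4 and 5083.3 in the cecal ones, lowest in the tumors numbered 2, as was Pla2g2a.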
